A study of Rattus norvegicus with 287 samples.

Results

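Genes grouped here as kidney tubule injury genes were followed through the kidneys of obese and diabetic rats treated with peripheral focused ultrasound (pFUS). There were 8 of them, Havcr1, Spp1, Clu, Timp1, Vim, Vcam1, Cd44 and Adamts4, found by their symbols among the 32623 genes counted. All 8 were present in the table and passed the filter on low counts in each comparison. The measurements came from 21 kidney libraries of the 287 libraries in the series. In obese rats, Adamts4 was the member that passed the test, at 19.1 ± 16.8 CPM (read counts per gene scaled to a common library total; SD, n = 5) in controls and 1.61 ± 0.599 CPM (SD, n = 5) after pFUS. For all 8 members the highest value came from 1 control kidney, which held 48.6 CPM of Adamts4. In that kidney Havcr1 stood 87.9-fold over the median of 7 other obese kidneys. Over the 10 obese kidneys Adamts4 had the lowest Pearson r with Havcr1 of the members. It was 0.58, or 0.83 with each group centred on its mean.

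The obese Zucker Diabetic Fatty rats, labelled Obese ZDF, were all male, with 5 controls (replicates 1 to 5) and 5 given pFUS (replicates 6 to 10). The second model is labelled DIO-stz, a name usually read as diet-induced obesity with streptozotocin, though the labels do not spell it out. It had 4 controls (replicates 3 and 4 female, 5 and 6 male) and 5 rats given pFUS (replicates 7 to 10 male, 11 female). A pair of female pFUS rats labelled DIO Diet Resistant had no control group of their own. Every rat belonged to a 7-week group and was anesthetized with isoflurane before its sessions. The pFUS groups received ultrasound at 1.1 MHz aimed at the porta hepatis, the entry of vessels and nerves into the liver, for 3 minutes a day. Per the labels' protocols, animals not given ultrasound had a sham session with no energy applied. Not given in the sources used here are the ages and the strain of the DIO rats. No lean or healthy kidney is among the groups analysed here.

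Injured proximal tubule cells lose their transport program and re-express genes of spreading, adhesion and repair. Havcr1 encodes KIM-1, a surface receptor by which injured proximal tubule cells take up dying neighbours. Spp1 encodes osteopontin, a secreted ligand of integrins and of CD44, and Clu encodes clusterin, a secreted chaperone. Timp1 encodes an inhibitor of metalloproteinases, Adamts4 a protease that cuts the proteoglycans aggrecan and versican, and Vim the intermediate filament vimentin of mesenchymal and dedifferentiated cells. Vcam1 encodes an adhesion molecule that binds integrins of leukocytes, and Cd44 encodes the receptor for hyaluronan.

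The 5' ends of these genes are shown first, since the members are compared with each other below. RefSeq promoter windows of the build GRCr8, from 250 bases before to 50 bases after the annotated start, were found for 7 of the 8 members, Clu being the other one. They come from a later build than the counts, which were made on Rnor_6.0. Havcr1 (chr10:31629528-31629827, plus strand) and Spp1 (chr14:5619755-5620054, minus strand) are shown as the pair of members that varied most closely together. Adamts4 (chr13:86202761-86203060, plus strand) is shown as the member that passed the test, and Vcam1 (chr2:206742734-206743033, minus strand) as the member with the smallest fitted change in obese kidneys. Each is written 5' to 3' on the gene's strand, with capitals marking matches to the motifs searched.
Havcr1: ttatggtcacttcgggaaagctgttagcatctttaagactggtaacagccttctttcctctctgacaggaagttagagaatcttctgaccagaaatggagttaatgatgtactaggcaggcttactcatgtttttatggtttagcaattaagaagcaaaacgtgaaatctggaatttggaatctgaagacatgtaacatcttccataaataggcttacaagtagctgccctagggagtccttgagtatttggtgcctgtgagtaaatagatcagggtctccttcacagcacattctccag
Spp1: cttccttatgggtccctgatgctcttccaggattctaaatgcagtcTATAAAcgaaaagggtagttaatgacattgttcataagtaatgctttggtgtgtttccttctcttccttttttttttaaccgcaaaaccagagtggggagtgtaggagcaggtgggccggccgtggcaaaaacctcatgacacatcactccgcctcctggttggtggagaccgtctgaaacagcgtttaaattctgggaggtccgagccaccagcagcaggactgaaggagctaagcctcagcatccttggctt
Adamts4: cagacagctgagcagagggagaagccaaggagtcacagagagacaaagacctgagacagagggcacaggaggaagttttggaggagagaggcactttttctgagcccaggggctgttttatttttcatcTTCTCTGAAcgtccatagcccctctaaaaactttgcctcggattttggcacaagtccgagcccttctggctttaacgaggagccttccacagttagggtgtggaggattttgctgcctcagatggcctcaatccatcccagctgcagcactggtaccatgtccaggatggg
Vcam1: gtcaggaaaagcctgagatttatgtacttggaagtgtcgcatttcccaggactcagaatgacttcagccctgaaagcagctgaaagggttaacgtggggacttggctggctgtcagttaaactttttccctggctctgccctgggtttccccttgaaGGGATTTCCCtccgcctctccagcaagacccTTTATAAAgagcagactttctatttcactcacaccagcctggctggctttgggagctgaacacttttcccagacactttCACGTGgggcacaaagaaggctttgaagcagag
The motifs were searched on both strands as letters only. They were AP-1 (TGAGTCA or TGACTCA), the E-box CACGTG, the TATA box TATAAA, the GC box GGGCGG, the STAT motif TTCNNNGAA and the nuclear factor kappa B motif. In the Spp1 window the capitals are a TATA match that begins 204 bases before the start, and in Adamts4 a STAT match 121 bases before it. In Vcam1 they are the nuclear factor kappa B match, 93 bases before the start, a pair of overlapping TATA matches, one on each strand, and the E-box 17 bases after the start position. Of the windows not printed, Timp1 held a GC box, Vim held a TATA box, a GC box and 3 overlapping nuclear factor kappa B matches, and Cd44 held none of the motifs. The Havcr1 window held none of these letters either. Among all 33465 RefSeq promoter windows of the same length, 14.2% held the TATA box, 8.87% the STAT motif, 7.52% the nuclear factor kappa B motif, 33.1% the GC box and 6.42% the E-box. AP-1 was in 4.63% of all windows and in none of the 7 members' windows. These matches describe letters in a window and not binding.

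Kidney libraries held between 8196905 and 20784994 counts, with a median of 13233273. Tissue labels were checked with Slc34a1 of the proximal tubule, between 1237.0 and 6392.2 CPM, and with Umod of the thick ascending limb, between 777 and 4238.5 CPM, both on raw totals. Y-linked Kdm5d and Eif2s3y together lay between 12.6 and 105 CPM in the 16 male libraries and at most at 0.137 CPM in the 5 female ones. No 2 libraries of a group were identical in the 37 pairs checked. From here on CPM is given on totals scaled by TMM, edgeR's correction for composition, unless raw totals are named.

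A set of 3 obese kidneys was taken by the highest Havcr1, namely control 2, control 4 and pFUS 8. In control 2 all 8 members were above the other 7 obese kidneys, with Spp1 46.2-fold, Adamts4 23.7-fold, Cd44 10.8-fold, Clu 10.0-fold, Timp1 8.12-fold, Vim 4.79-fold and Vcam1 2.80-fold over their median. The other 7 are 3 controls and 4 pFUS kidneys, so these ratios include any difference between the groups, which mattered most for Adamts4: over the median of the 3 controls alone its ratio was 4.92-fold, and that of Havcr1 was 145-fold. In control 4 the excess was 12.1-fold for Havcr1 and 10.2-fold for Spp1, and 6 of 8 members were above the other 7. In pFUS 8 it was 5.53-fold for Havcr1 and 6.61-fold for Spp1, with 5 of 8 above. Across all 13157 genes with a mean of at least 1 CPM, 24.6% were above and 28.2% below the other 7 in control 2, 13.5% and 15.5% in control 4, and 8.15% and 6.73% in pFUS 8. Position alone puts each of 8 libraries highest for about 1 gene in 8, and lowest for as many. Over all genes control 2 was thus well past that share, control 4 near it and pFUS 8 under it. The 3 libraries were singled out by Havcr1 after their values were seen. The excess of Havcr1 and of genes that follow it is thus partly built in. The obese results of the members are given with and without the 3 libraries below.

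**Figure D1:**
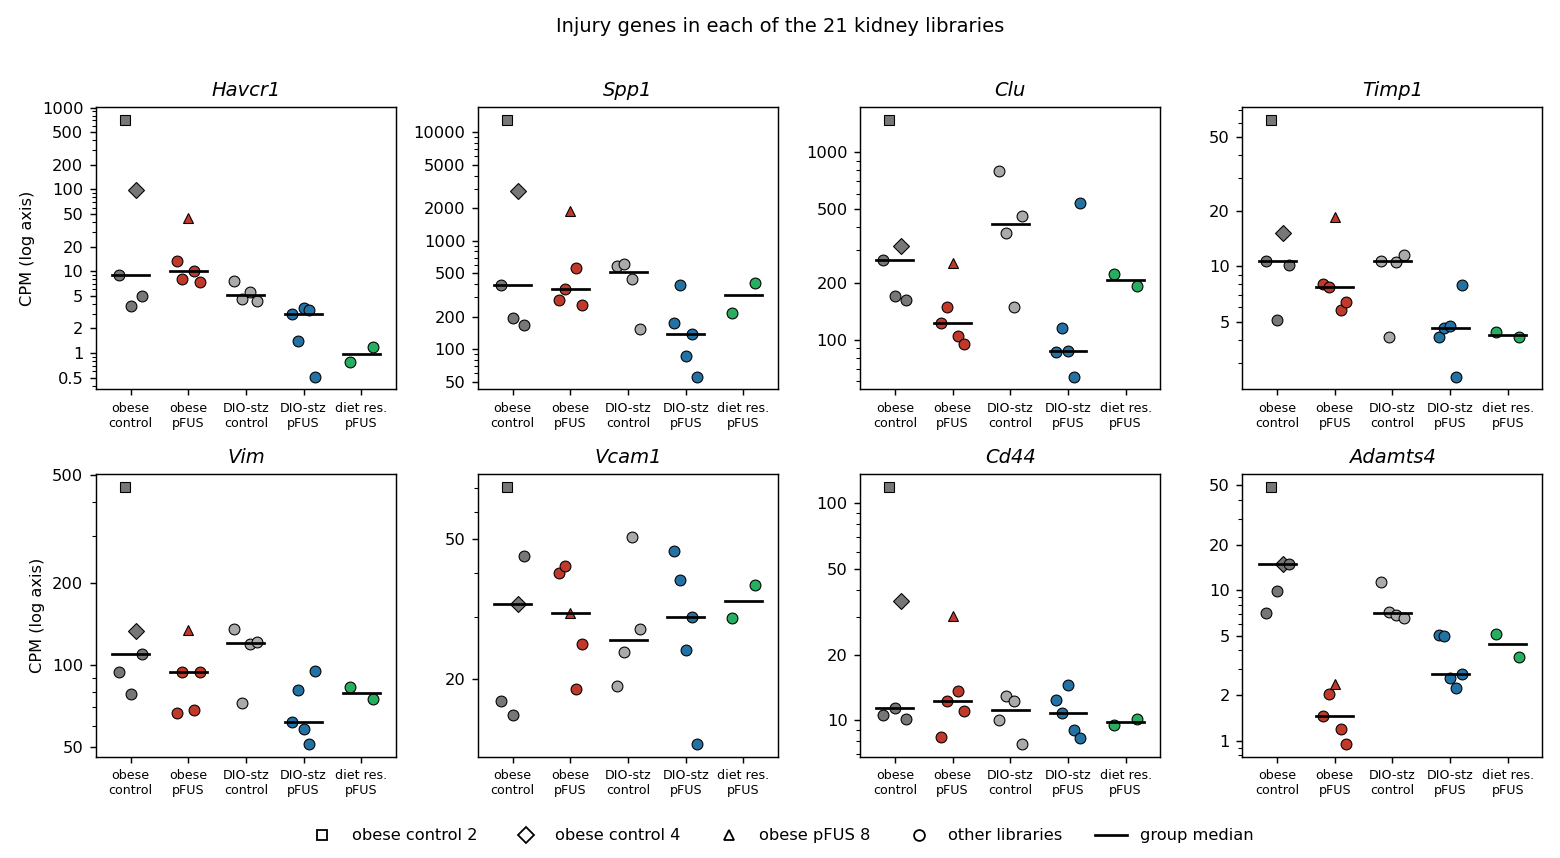
CPM of each injury gene (log axis) in each of the 21 kidney libraries, with 1 point per library and a line at the group median. Squares, diamonds and triangles mark obese control 2, obese control 4 and obese pFUS 8; control 2 is the highest library for all 8 genes, and the Adamts4 groups do not overlap in either model.

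Havcr1 in obese controls was at 8.97, 713, 3.77, 98.2 and 4.93 CPM in replicates 1 to 5, and after pFUS at 13.2, 8.11, 44.8, 10.2 and 7.33 CPM in replicates 6 to 10. The groups overlapped fully, the 5 pFUS kidneys lying inside the range of the controls, and the medians were 8.97 CPM in controls and 10.2 CPM after pFUS. The fitted log2 fold change was -3.40 ± 1.33 (SE; edgeR quasi-likelihood test, unadjusted p = 0.0249, adjusted p = 0.665), and it did not pass after adjustment over all genes tested. Without control 2 it was -0.81, and without all 3 kidneys it was 0.63 ± 0.35 (SE), of the opposite sign (adjusted p = 0.260). The 3 were picked by their Havcr1 and hold more controls than pFUS kidneys. Leaving them out therefore raises the fitted value by itself, and the turned sign says nothing about pFUS. In bulk RNA, fewer cells of a type and less RNA per cell cannot be told apart.

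Spp1 followed the same libraries. It was at 390, 13104.5, 192, 2901.4 and 166 CPM in the obese controls and at 283, 362, 1872.1, 558 and 254 CPM after pFUS. Control 2, control 4 and pFUS 8 were again the highest, and the other 7 lay between 166 and 558 CPM with both groups mixed. The log2 fold change was -2.43 ± 1.15 (SE; edgeR, adjusted p = 0.693), -0.47 without control 2, and 0.47 ± 0.36 (SE) without the 3 kidneys. The last value has the same limit as for Havcr1, since Spp1 was highest in the same kidneys.

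Clu, the other secreted protein, was at 267, 1492.4, 170, 317 and 162 CPM in the obese controls and at 123, 149, 257, 104 and 95.1 CPM after pFUS. Here 4 of 5 pFUS kidneys were below every control, and pFUS 8 was the exception. The log2 fold change of -1.80 ± 0.61 (SE) did not pass (edgeR, unadjusted p = 0.0122, adjusted p = 0.635). It was -0.65 without control 2, and without the 3 kidneys it was also negative, at -0.83 ± 0.24 (SE, adjusted p = 0.0797).

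Adamts4 showed another pattern. Controls 1 to 5 held 7.09, 48.6, 9.87, 14.9 and 15.0 CPM, and pFUS kidneys 6 to 10 held 1.45, 2.05, 2.40, 1.20 and 0.952 CPM. Every pFUS kidney was below every control, and the protease was low after pFUS also in replicate 8, where Havcr1 and Spp1 were high. The log2 fold change was -3.62 ± 0.54 (SE; edgeR, adjusted p = 0.0308), lower in 5 of 5 pFUS kidneys. It was -2.95 ± 0.35 (SE; adjusted p = 0.0175) without the 3 kidneys and -2.85 ± 0.33 (SE; adjusted p = 0.00473) without control 2 alone. DESeq2 gave -3.60 ± 0.49 (SE, adjusted p = 4.23e-10). The adjusted p was above the threshold of 0.05 in 7 of the 10 refits that left out 1 library, between 0.0511 without control 5 and 0.142 without pFUS 9; the other 5 were control 4 and pFUS 6, 7, 8 and 10. The counts behind the pFUS values were 10 to 30 reads per library, against 124 to 796 in controls.

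The remaining 4 members did not pass in obese kidneys. Timp1 was between 5.12 and 62.3 CPM in controls and between 5.78 and 18.5 CPM after pFUS (log2 fold change -1.24 ± 0.62, SE; edgeR, adjusted p = 0.719). Vim was between 78.2 and 453 CPM against 66.5 and 135 CPM (-0.99 ± 0.46, SE, adjusted p = 0.690). In both genes control 2 was the highest control, and pFUS 8 the highest of the treated kidneys. Without control 2 the log2 fold change was -0.15 for Timp1 and -0.19 for Vim, and without the 3 kidneys -0.38 ± 0.30 (SE) and -0.28 ± 0.20 (SE). Cd44 was at 10.6, 119, 11.4, 35.5 and 10.2 CPM in controls and at 8.35, 12.3, 30.2, 13.7 and 11.0 CPM after pFUS (-1.38 ± 0.69, SE, adjusted p = 0.719). Outside the 3 kidneys, Cd44 lay between 8.35 and 13.7 CPM in both groups, and its log2 fold change without them was 0.02 ± 0.21 (SE). Vcam1 had the smallest fitted change, with levels between 15.7 and 70.5 CPM in controls and between 18.7 and 41.9 CPM after pFUS (-0.26 ± 0.40, SE, adjusted p = 0.900), and 0.23 ± 0.42 (SE) without the 3 kidneys.

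Of the 8 members, 1 passed in obese kidneys, 0 upward and 1 downward. The members were chosen with earlier results of these data known, so their count and direction are no independent evidence. Over all 13359 genes tested, 13 passed, or 0.0973%, all of them lower after pFUS, while 962 had an unadjusted p under 0.05 and DESeq2 called 97. Only Adamts4 among the members had all pFUS kidneys below all controls, which was so for 94 of the genes tested (0.704%). The median log2 fold change of the members was -1.59, with 8 of 8 negative, against a median of -0.04 and 55.6% negative over all genes. Much of that rested on control 2. The members' median was -0.33 without it and -0.13 without the 3 kidneys, with 4 members then negative and 4 positive, and the median over all genes was 0.01 and -0.03 in these refits.

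**Figure D2:**
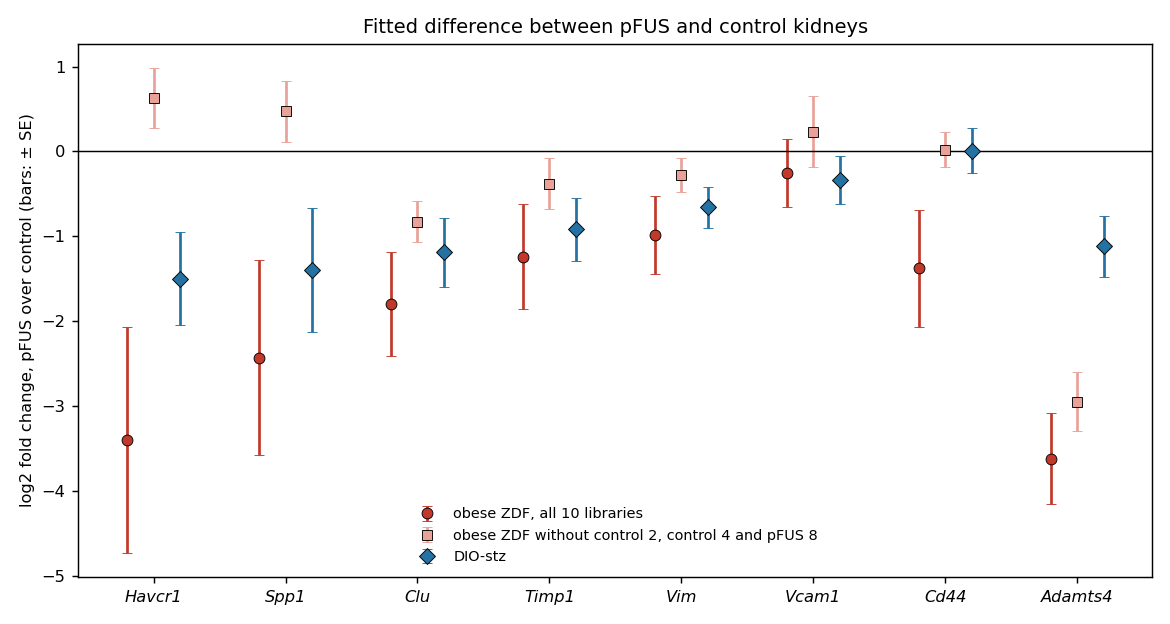
Fitted log2 fold change of pFUS over control (y axis) for each injury gene, with bars of 1 SE, in obese kidneys with all 10 libraries, in obese kidneys without control 2, control 4 and pFUS 8, and in DIO-stz kidneys. Havcr1, Spp1, Vcam1 and Cd44 lie above 0 once the 3 kidneys are left out, while Adamts4 stays at -2.95. The 3 were picked by their Havcr1, so leaving them out raises the fitted values of Havcr1 and Spp1 by itself.

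In DIO-stz kidneys Havcr1 was low throughout. It was at 7.64, 4.61, 5.51 and 4.36 CPM in controls 3 to 6 and at 3.02, 1.40, 3.56, 3.37 and 0.515 CPM in pFUS kidneys 7 to 11. Every pFUS kidney was below every control, with 7 to 59 reads behind each pFUS value and 65 to 111 behind each control. The log2 fold change in a fit with sex as a term was -1.50 ± 0.55 (SE; edgeR, adjusted p = 0.298). Both diet resistant females given pFUS were also low, at 0.771 and 1.18 CPM, and the lowest DIO-stz value belonged to the female pFUS 11.

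Adamts4 was again lower in all pFUS kidneys than in all controls. The controls held 11.4, 7.23, 6.84 and 6.51 CPM and the pFUS kidneys 5.08, 5.00, 2.61, 2.23 and 2.79 CPM. The log2 fold change was -1.12 ± 0.36 (SE; edgeR, adjusted p = 0.248, and DESeq2, adjusted p = 0.0640), which did not pass. The diet resistant females, at 5.16 and 3.62 CPM, lay among the pFUS values or just over them.

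Spp1 was at 587, 616, 446 and 152 CPM in DIO-stz controls and at 175, 389, 86.8, 137 and 55.9 CPM after pFUS, with a log2 fold change of -1.40 ± 0.73 (SE; edgeR, adjusted p = 0.463). The groups overlapped through control 6, which was below pFUS 7 and pFUS 8. Clu was at 795, 370, 150 and 455 CPM in controls and at 86.4, 116, 87.4, 63.5 and 538 CPM after pFUS (-1.19 ± 0.41, SE, adjusted p = 0.284). The 4 male pFUS kidneys were below every control and the female pFUS 11 was above 3 of them. Clu in male libraries alone gave -1.75 ± 0.42 (SE, adjusted p = 0.115), with 2 controls and 4 pFUS kidneys, and leaving out control 6 gave -0.46. The log2 fold changes of Havcr1 and Spp1 were -0.78 and -0.59 without pFUS 11.

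Timp1 in DIO-stz kidneys was at 10.7, 4.11, 10.6 and 11.5 CPM in controls and at 4.11, 4.65, 4.72, 2.52 and 7.94 CPM after pFUS (-0.92 ± 0.37, SE; edgeR, adjusted p = 0.334). Female control 4 was the low control and female pFUS 11 the high treated kidney. Vim was between 72.8 and 136 CPM in controls and between 51.3 and 95.1 CPM after pFUS (-0.66 ± 0.24, SE, adjusted p = 0.303). Vcam1 was between 19.0 and 50.6 CPM and between 13.0 and 46.3 CPM (-0.34 ± 0.28, SE, adjusted p = 0.685). Leaving out 1 library moved Vcam1 to between -0.62, without control 6, and -0.14, without control 5, and Timp1 to between -1.46, without pFUS 11, and -0.74, without control 6. Cd44 was 10.8 ± 2.33 CPM (SD, n = 4) in controls and 11.0 ± 2.53 CPM (SD, n = 5) after pFUS, with a log2 fold change of 0.01 ± 0.26 (SE, adjusted p = 0.996).

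None of the members passed in DIO-stz kidneys with edgeR or with DESeq2, and 5 of 8 had an unadjusted p under 0.05 by edgeR. Over all 14481 genes tested, 15 passed with edgeR (0.104%; 10 higher and 5 lower after pFUS), 1847 had an unadjusted p under 0.05, and 450 passed with DESeq2. Havcr1 and Adamts4, 2 of the 8, had all pFUS kidneys below all controls, which was so for 379 of the genes tested (2.62%). The members' median log2 fold change was -1.02, with 7 of 8 negative, against a median of -0.03 and 52.5% negative over all genes. Here too the members' choice with earlier results known makes their direction no independent evidence. Sex was unequal between these groups, with 2 females of 4 controls and 1 of 5 pFUS kidneys.

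The difference between the effects of pFUS in the 2 models was tested itself, as an interaction over all 21 libraries. No gene of 14840 passed (0%), while 1041 had an unadjusted p under 0.05. DESeq2 called 51, none of them a member. For Adamts4 the difference, obese minus DIO-stz, was -2.42 ± 0.69 on the log2 scale (SE; edgeR, adjusted p = 0.389, and DESeq2, adjusted p = 0.0507). For Havcr1 it was -1.87 ± 1.76 (SE; adjusted p = 0.898), and 2.12 ± 0.69 (SE; adjusted p = 0.490) without the 3 obese kidneys. Picking these kidneys by their Havcr1 raises the latter value by itself. A difference between the models was thus not shown for any member. The level of Adamts4 was ordered as obese control (median 14.9 CPM), DIO-stz control (7.03 CPM), diet resistant pFUS (4.39 CPM), DIO-stz pFUS (2.79 CPM) and obese pFUS (1.45 CPM), and of these neighbours only the ranges of DIO-stz control and diet resistant pFUS were apart. For Havcr1 the order was obese pFUS (10.2 CPM), obese control (8.97 CPM), DIO-stz control (5.06 CPM), DIO-stz pFUS (3.02 CPM) and diet resistant pFUS (0.977 CPM). Among neighbours in this order, only the ranges of DIO-stz control and DIO-stz pFUS were apart.

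How far the members varied together was measured as the correlation of log2(CPM + 1) across libraries, within each model. These libraries share tissue, kit and model, and the correlations include differences between pFUS and control. In the 10 obese kidneys the 28 pairs of members had a median Pearson r of 0.85, between 0.41 and 0.98, and all 28 were positive. The 15 pairs among Havcr1, Spp1, Clu, Timp1, Vim and Cd44 lay between 0.85 and 0.98. Vcam1 was looser, with a median of 0.54 over its 7 pairs, and so was Adamts4, with a median of 0.64. After each group was centred on its own mean, the Adamts4 pairs had a median r of 0.86 and all pairs one of 0.90. By rank the pairs were weaker, with a median Spearman rho of 0.54, between 0.15 and 0.92.

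Havcr1 and Spp1 were the closest pair. Their Pearson r was 0.98 (permutation p = 2.00e-05; adjusted p = 0.134 over all 13358 genes set against Havcr1) and their rho 0.92 (permutation p = 4.50e-04; adjusted p = 0.755). Leaving out control 2 and control 4, the libraries farthest from the median of Havcr1, r was 0.93 over 8, and without all 3 kidneys it was 0.71 over 7. Cd44 with Havcr1 had r = 0.96 (permutation p = 0.00152; adjusted p = 0.137) and rho = 0.62 (permutation p = 0.0607; adjusted p = 0.755). Without control 2 and control 4, r was 0.77, and without the 3 kidneys it was -0.20. Timp1 with Havcr1 had r = 0.93 (permutation p = 0.00133; adjusted p = 0.137) and rho = 0.75 (permutation p = 0.0176; adjusted p = 0.755). It went to 0.75 and then to 0.21 in the same steps.

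Clu and Vim each had r = 0.88 with Havcr1 (permutation p = 0.00466 and 0.00432; adjusted p = 0.138 for both), with rho of 0.52 and 0.47 (permutation p = 0.133 and 0.179; adjusted p = 0.755 for both). Without control 2 and control 4, r was 0.35 for Clu and 0.40 for Vim. The relation of Vcam1 with Havcr1 was weaker, with r = 0.61 (permutation p = 0.0585; adjusted p = 0.237) and rho = 0.38 (permutation p = 0.279; adjusted p = 0.773), and r = 0.19 without control 2 and control 4. That of Adamts4 had r = 0.58 (permutation p = 0.0763; adjusted p = 0.267) and rho = 0.20 (permutation p = 0.582; adjusted p = 0.881), and r = -0.48 without control 2 and control 4. None of the 7 passed after adjustment, and the same held for every gene set against Havcr1: 0 of 13358 had an adjusted p under 0.05. The 100000 permutations set a floor on p. Over this many genes a single gene at that floor could not pass, so the 0 is partly built in. The median r with Havcr1 over all genes was 0.01, and 122 genes (0.913%) reached an r of at least 0.9, as did 3 of the 7 members. Since the members were chosen with earlier results of these data known, that share is no independent evidence.

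Leaving out the 3 kidneys lowered the joint variation. They were picked for the highest Havcr1, so the other 7 span only 3.77 to 13.2 CPM of it. A narrower range lowers r by itself, so the fall in r is partly built in. Without control 2, control 4 and pFUS 8 the 28 pairs had a median r of -0.07, between -0.72 and 0.73, and 13 were positive. The highest were Clu with Adamts4 (0.73), Havcr1 with Spp1 (0.71) and Clu with Timp1 (0.59). Leaving out 1 library at a time moved the median r to between 0.61, without control 2, and 0.89, without control 5 or pFUS 9.

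**Figure D3:**
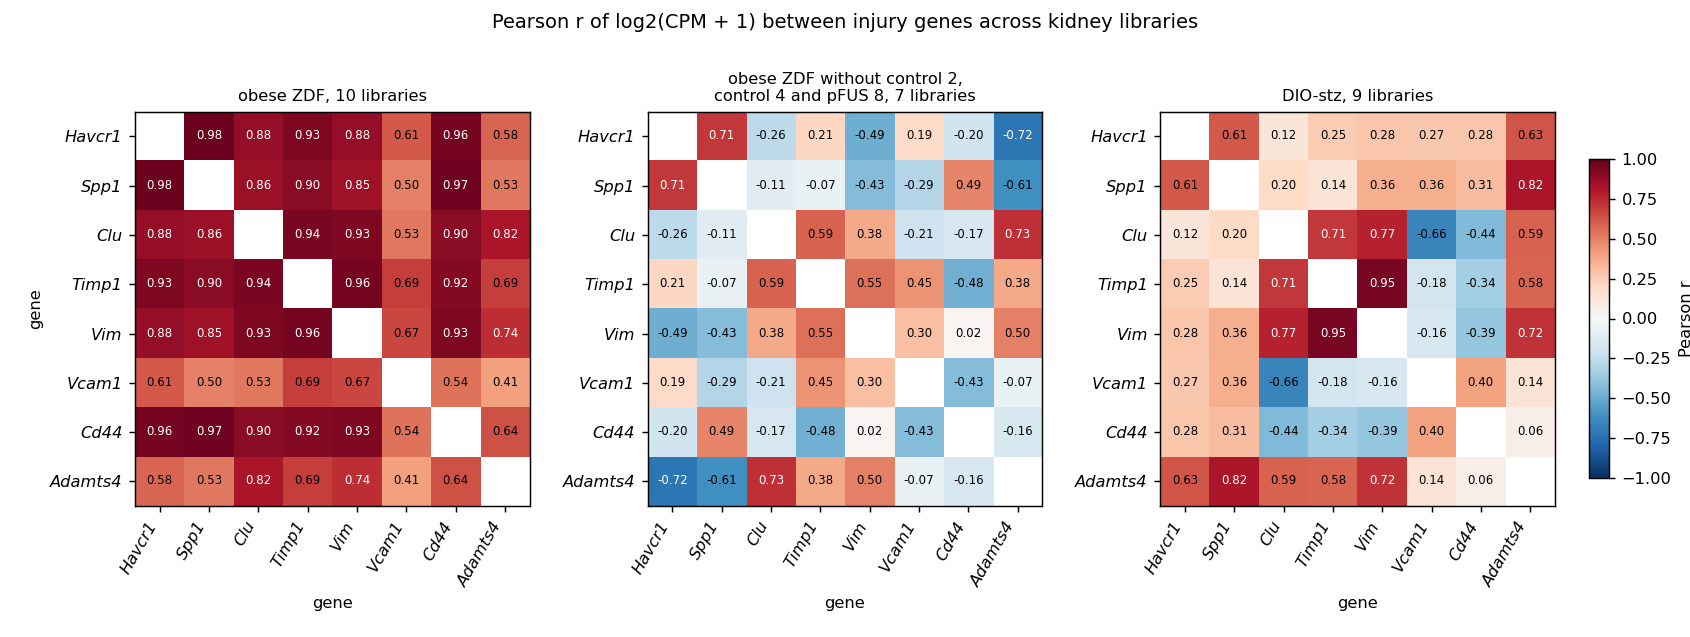
Pearson r of log2(CPM + 1) between each pair of injury genes, for the 10 obese kidneys, the 7 obese kidneys without control 2, control 4 and pFUS 8, and the 9 DIO-stz kidneys. Color runs from -1 (blue) to 1 (red); the obese median of 0.85 goes to -0.07 without the 3 kidneys and is 0.28 in DIO-stz.

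In the 9 DIO-stz kidneys the 28 pairs had a median r of 0.28, between -0.66 and 0.95, and a median of 0.15 after the groups were centred. One block of genes still varied together: Timp1 with Vim at 0.95, Clu with Vim at 0.77 and Clu with Timp1 at 0.71. These 3 pairs kept an r of 0.92, 0.59 and 0.51 after centring. Spp1 and Adamts4 were at 0.82, or 0.65 centred. Clu and Vcam1 went in opposite directions, at -0.66, or -0.85 centred, but at -0.33 without the pair of libraries farthest from the median of Clu. Among pFUS kidneys the female pFUS 11 had the highest Clu (538 CPM) and the lowest Vcam1 (13.0 CPM). Sex was not removed from these correlations.

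Havcr1 in DIO-stz kidneys was closest to Adamts4 among the members, with r = 0.63 (exact permutation p = 0.0678; adjusted p = 0.884 over 14480 genes) and rho = 0.73 (exact permutation p = 0.0311; adjusted p = 0.692). Centring took that r to 0.09. With Spp1 it had r = 0.61 (exact permutation p = 0.0817; adjusted p = 0.892) and rho = 0.67 (exact permutation p = 0.0589; adjusted p = 0.751), and 0.26 after centring. With Clu, Timp1, Vim, Vcam1 and Cd44 its r lay between 0.12 and 0.28, with exact permutation p between 0.466 and 0.761 and an adjusted p of 0.998 for each. After centring, r was -0.62 for Clu, -0.41 for Timp1, -0.51 for Vim, 0.38 for Vcam1 and 0.47 for Cd44. Leaving out pFUS 11 and pFUS 8, the kidneys farthest from the median of Havcr1, moved r to 0.81 with Adamts4, 0.77 with Spp1, 0.80 with Clu, 0.73 with Timp1 and 0.84 with Vim, and to -0.38 with Vcam1 and -0.16 with Cd44, so that these values also depended on a pair of libraries.

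**Figure D4:**
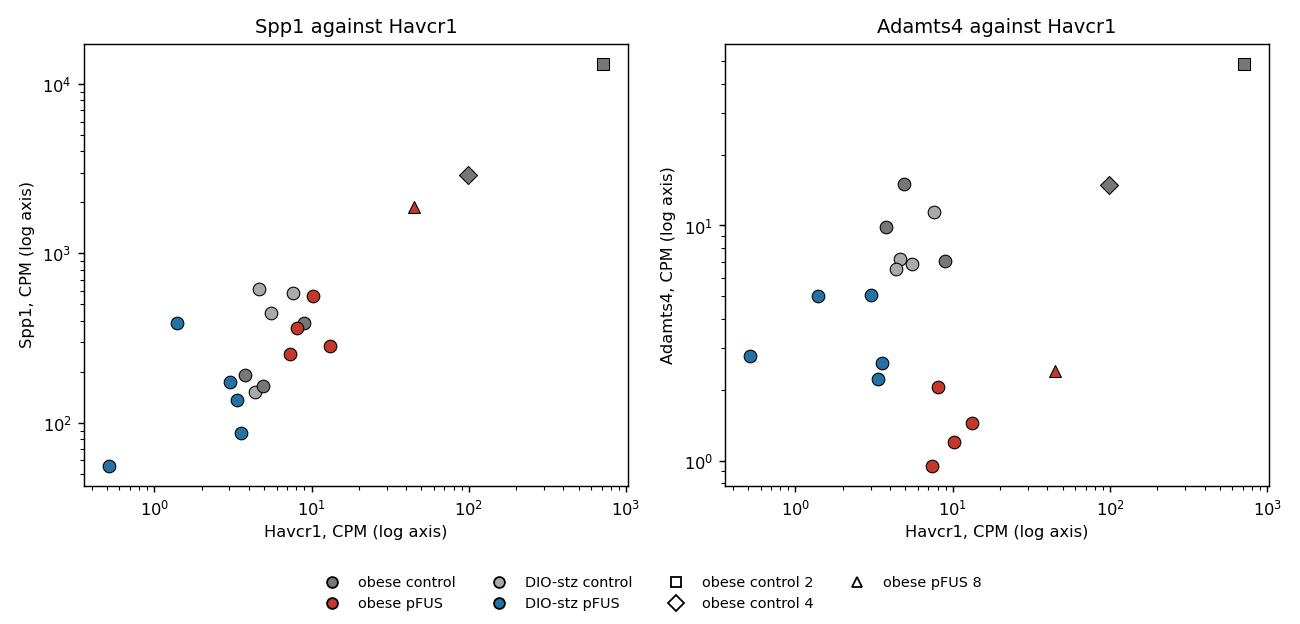
Spp1 (left) and Adamts4 (right) against Havcr1, both axes in CPM on log scales, for the 10 obese and 9 DIO-stz kidneys. The 3 kidneys with the highest Havcr1 also have the highest Spp1, while obese pFUS 8 has 44.8 CPM of Havcr1 and only 2.40 CPM of Adamts4.

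Outside the 8 members, the 5 genes with a mean of at least 1 CPM and the highest r with Havcr1 over the obese kidneys were Dnm3, Adra1d, Ephb6, Bcl3 and Birc3, each at r = 0.97. Dnm3 encodes a dynamin, Adra1d an alpha-1 adrenergic receptor, Ephb6 an Eph receptor, Bcl3 a nuclear partner of nuclear factor kappa B and Birc3 an inhibitor of apoptosis. In control 2 they stood at 56.3, 63.4, 32.9, 45.6 and 45.5 CPM, and in control 4 at 27.4, 12.1, 7.75, 11.8 and 13.0 CPM. In the 9 DIO-stz kidneys their r with Havcr1 was -0.13, 0.29, -0.22, 0.49 and 0.78 in the same order, so the likeness in obese kidneys did not carry over for the first 3.

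Other gene groups also differed, mainly in control 2. In control 2, 13 of 20 proximal tubule genes and 11 of 13 genes of other tubule segments were below the other 7 obese kidneys, and 0 of either list were above. The summed level of the proximal tubule list was 9060.0 CPM there, against 20122.9 to 35149.8 CPM in the other 7, with the phosphate transporter Slc34a1 at 885 CPM against 2771.4 to 4990.2 CPM. Glomerular and endothelial genes were also low, 11 of 14 below. Fibrosis genes went the other way, with 15 of 16 above, a summed level of 3780.7 CPM and a fibronectin (Fn1) level of 781 CPM against 46.1 to 95.1 CPM. Macrophage genes had 11 of 13 above, although their summed level of 1852.4 CPM lay inside the range of the other 7 (848 to 2002.9 CPM), inflammation genes 12 of 16, and the further injury genes 17 of 27, among them Lcn2, the urinary marker lipocalin 2, at 157 CPM against 3.81 to 9.32 CPM.

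Control 4 shared part of this, and pFUS 8 less of it. Fibrosis genes above the other 7 numbered 8 of 16 in control 4 and 3 of 16 in pFUS 8. Macrophage genes above them numbered 8 and 6 of 13. Over all genes the share above was 13.5% in control 4 and 8.15% in pFUS 8. The 3 fibrosis genes of pFUS 8 are close to what position among the libraries gives by itself. The proximal tubule list was not low in either, summing to 22941.2 and 24385.2 CPM. Stress-response genes had a median log2 ratio to the other 7 of 0.61 in control 4 and -0.08 in pFUS 8. By group, the macrophage list summed to 1010.1 to 2002.9 CPM in obese controls and 848 to 1501.6 CPM after pFUS, and the proximal tubule list to 9060.0 to 35149.8 CPM and 20953.9 to 27765.9 CPM. Their part in the members' levels was not tested.

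**Figure D5:**
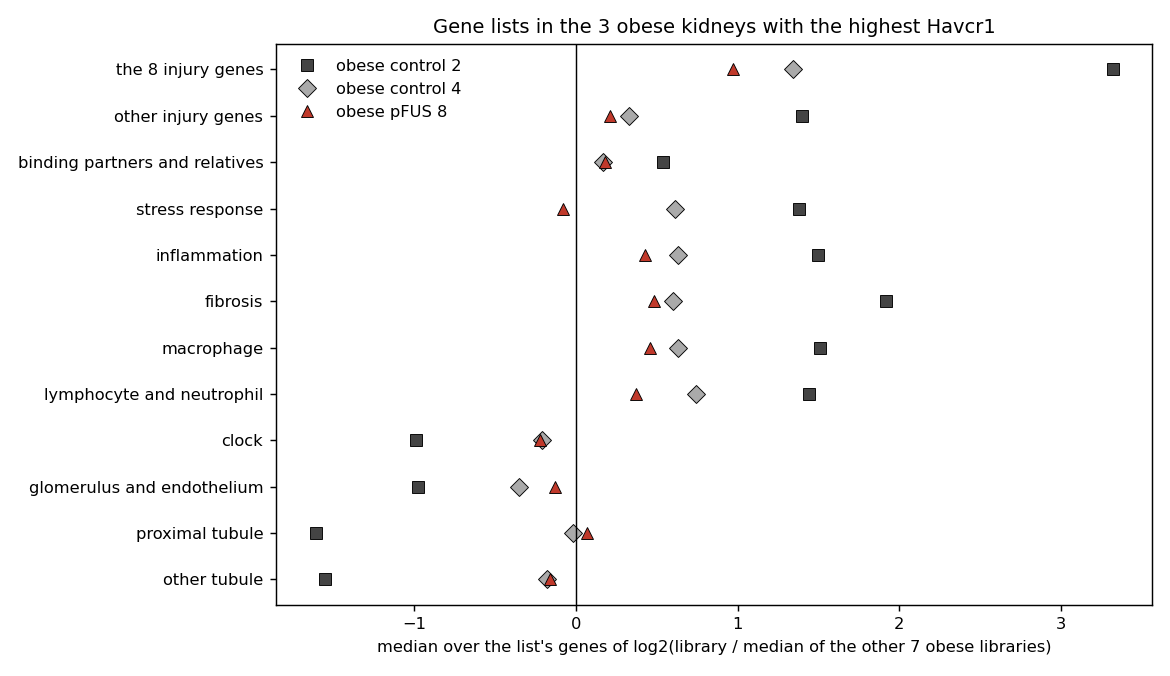
For each gene list drawn, the median over its genes of the log2 ratio of a library to the median of the other 7 obese kidneys (x axis), for control 2 (square), control 4 (diamond) and pFUS 8 (triangle). The list of red cells and other tissues is not drawn, and is at -1.30, -0.52 and -0.73 in that order. Control 2 runs from -1.61 for proximal tubule genes to 3.32 for the 8 injury genes, and the 8 genes are also the highest list in control 4 (1.34) and pFUS 8 (0.97). These libraries were picked by their Havcr1, which is among the 8, so this rank is partly built in.

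The wider gene lists were read beside the members in the pFUS comparison. These lists were chosen with earlier results of the same libraries known, so a list's direction is no independent evidence. Among 26 further injury genes tested in obese kidneys, 0 rose, 1 fell and 25 did not pass. The one was Ccn1, a matrix-bound regulator of adhesion, at 113 ± 55.9 CPM in controls (SD, n = 5) and 23.6 ± 8.05 CPM after pFUS (SD, n = 5), with a log2 fold change of -2.30 ± 0.33 (SE; edgeR, adjusted p = 0.0269). Ccn1 was not high in control 2, at 65.4 CPM against 82.8 to 208 CPM in the other controls. The list's median was -0.60, against -0.04 over all genes, and in DIO-stz kidneys it was -0.17 over 27 genes, of which 0 passed. Without the 3 kidneys the obese median was -0.39, with 2 of 26 lower, Ccn1 and Myc, the latter chosen after its value was seen (-1.39 ± 0.23, SE; edgeR, adjusted p = 0.0499).

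Stress-response genes had 3 of 19 that fell in obese kidneys and 0 that rose. Atf3, a stress-induced transcription factor, was at 57.7 ± 49.8 CPM and 4.28 ± 2.35 CPM (log2 fold change -3.81 ± 0.59, SE; edgeR, adjusted p = 0.0308). Gdf15, a stress hormone, was at 47.2 ± 13.3 CPM and 8.17 ± 3.35 CPM (-2.56 ± 0.31, SE, adjusted p = 0.00623). Jun, an AP-1 subunit, was at 280 ± 86.3 CPM and 75.8 ± 21.1 CPM (-1.93 ± 0.26, SE, adjusted p = 0.0130). The median of this list was -1.58. Atf3 was highest in control 2 (138 CPM) and control 4 (74.9 CPM). Without the 3 kidneys its log2 fold change was -3.00 ± 0.24 (SE; edgeR, adjusted p = 0.00353), and the list had 4 that fell and a median of -1.49. In DIO-stz kidneys 0 of 19 passed, with a median of -0.49 and with Hmox1 at -1.81 ± 0.34 (SE, adjusted p = 0.0958) and Gdf15 at -1.48 ± 0.48 (SE, adjusted p = 0.254) on the log2 scale.

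Clock genes had 2 of 18 that fell in obese kidneys and 0 that rose, with a median of 0.26. Both encode activators of the circadian loop. Arntl was at 20.7, 23.6, 34.1, 17.5 and 18.3 CPM in controls and at 6.44, 4.52, 4.79, 3.45 and 4.19 CPM after pFUS (-2.32 ± 0.24, SE; edgeR, adjusted p = 0.00322). Npas2 was at 16.1 ± 2.55 CPM and 5.00 ± 0.984 CPM (-1.72 ± 0.20, SE, adjusted p = 0.00439). The groups did not overlap for Arntl. In control 2, however, 9 of 18 clock genes were below the other 7 obese kidneys and 1 was above, with a median log2 ratio of -0.99. Without the 3 kidneys, 3 clock genes were lower and 1 higher after pFUS. The part of the hour of collection, which no source used here gives, was not tested for Adamts4. In DIO-stz kidneys 0 of 18 clock genes passed (median 0.19), with Nfil3 at -0.69 ± 0.42 (SE, adjusted p = 0.552) and Ciart at -0.68 ± 1.00 (SE, adjusted p = 0.864).

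The partners and relatives of the members had 0 of 29 past the threshold in obese kidneys and 0 of 30 in DIO-stz kidneys, with medians of -0.27 and -0.26. Adamts1, a protease related to Adamts4, had the largest fitted change in obese kidneys, at 185 ± 251 CPM in controls and 38.6 ± 5.97 CPM after pFUS (-2.33 ± 0.77, SE; edgeR, adjusted p = 0.635). It was at 615 CPM in control 2 and 201 CPM in control 4, and between 28.6 and 47.4 CPM in the other 8, so its highest libraries were the same controls as for Havcr1, and without the 3 kidneys its log2 fold change was -0.07 ± 0.18 (SE). The integrin subunit gene Itgb3 was next, at -1.08 ± 0.58 (SE, adjusted p = 0.729). In DIO-stz kidneys the intermediate filament gene Des was at -1.16 ± 0.39 (SE, adjusted p = 0.272) and the endocytic receptor gene Lrp2 at 1.00 ± 0.34 (SE, adjusted p = 0.275).

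No gene of the 8 other lists passed in either model, and no gene of any list passed in the difference between models. In obese kidneys the medians were -0.69 for inflammation (16 tested), -0.94 for fibrosis (16), -0.71 for macrophages (13) and -0.81 for lymphocytes and neutrophils (6). They were -0.05 for the proximal tubule (20), 0.11 for other tubule segments (13), 0.02 for glomerulus and endothelium (14) and -0.05 for red cells and other tissues (6). Without the 3 kidneys the medians were -0.36 for inflammation (15 tested), -0.32 for fibrosis, -0.36 for macrophages, -0.53 for lymphocytes and neutrophils and -0.31 for the proximal tubule, and 0 genes of the 8 lists passed. With all 10 libraries, the fibrosis gene Postn was at -1.52 ± 0.69 (SE; edgeR, adjusted p = 0.690) and the collagen gene Col1a2 at -1.52 ± 0.56 (SE, adjusted p = 0.665). The macrophage genes Mrc1 and Cd68 were at -1.18 ± 0.62 (SE, adjusted p = 0.729) and -1.09 ± 0.33 (SE, adjusted p = 0.568). Without the 3 kidneys Mrc1 was at 0.51 ± 0.34 (SE) and Cd68 at -1.03 ± 0.27 (SE). Socs3 (-2.90 ± 0.91, SE) and Il1b (-1.92 ± 0.43, SE) had the largest fitted changes among inflammation genes, and Slc7a13 (1.42 ± 0.80, SE) and Kap (1.24 ± 0.48, SE) among proximal tubule genes, all with an edgeR adjusted p between 0.220 and 0.738. In DIO-stz kidneys the medians were -0.76 for fibrosis (16), -0.32 for inflammation (17), 0.07 for macrophages (13), 0.24 for the proximal tubule (20) and 0.33 for other tubule segments (13). They were -0.44 for glomerulus and endothelium (14), -0.79 for lymphocytes and neutrophils (9) and 0.07 for red cells and other tissues (6). Tff3, a trefoil peptide on the further injury list, was higher in fitted value after pFUS there, at 2.51 ± 0.51 (SE, adjusted p = 0.103), and the cell-cycle inhibitor Cdkn1a was at -1.60 ± 0.27 (SE, adjusted p = 0.0745).

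Transcripts were read from the deposited counts per isoform, which are estimates that divide shared reads. Havcr1, Timp1, Vim and Adamts4 each had a single transcript in the table, and 1 transcript held 98.9% of the counts of Spp1 and 99.0% of those of Clu over the 21 libraries. Cd44 was divided between ENSRNOT00000009000 with 68.5% and ENSRNOT00000009073 with 31.3%. In obese kidneys the share of the first ran from 58.6% in pFUS 8 (95% Wilson interval 53.6% to 63.5%) to 86.7% in control 5 (78.1% to 92.2%), and in control 2 it was 65.5% (63.3% to 67.5%). The high Cd44 level of control 2 was thus spread over both transcripts. Vcam1 had 81.6% of its counts on ENSRNOT00000078806, between 59.1% in pFUS 6 and 100% in control 3 among obese kidneys. The intervals cover counting error only.

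Levels in other tissues of the same 7-week obese control group place the kidney values, on raw totals. The median of Havcr1 was 9.56 CPM in kidney (3.73 to 996 CPM, n = 5) and no median over 0.395 CPM was found outside it, although 1 intestine library reached 6.78 CPM. Spp1 had a median of 415 CPM in kidney, with adipose tissue next at 80.4 CPM. The remaining members were not highest in kidney. Clu had medians of 976 CPM in liver, 969 CPM in brain and 284 CPM in kidney. Adamts4 had 38.8 CPM in brain, 12.9 CPM in kidney and 10.7 CPM in adipose tissue. For Cd44 the medians were 102 CPM in intestine, 95.0 CPM in adipose tissue and 11.3 CPM in kidney, and for Vim 1644.1 CPM in adipose tissue and 101 CPM in kidney. Vcam1 was at 86.2 CPM in adipose tissue and 37.0 CPM in kidney, and Timp1 at 19.5 and 11.4 CPM. Adipose tissue and pancreas libraries were made with another kit, which was not corrected for here.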

How the data were processed

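RNA of whole kidney was sequenced with a stranded mRNA kit, per the labels' protocols. Per the submitters' processing notes, the authors used STAR 2.5.3a and RSEM with Rnor_6.0, and the annotation release was not given in the sources used here. Expected counts per gene and per isoform were deposited as whole numbers and are not normalized. From the gene counts 55 sample columns were read, and 232 were not used here. Each of 12205 genes had 0 counts in every kidney library.

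Members and gene lists were chosen with earlier results of these data known. Counts were fitted with edgeR 4.0.16 in R 4.3.3 (TMM factors, filterByExpr at a minimum count of 10, robust quasi-likelihood F tests), obese kidneys by group and DIO kidneys, with the 2 diet resistant libraries, by group and sex. The difference between models was an interaction over all 21 libraries with sex as a term. P-values were adjusted by Benjamini-Hochberg over all genes tested, with 0.05 as the threshold, and each SE was derived from the log2 fold change and its F statistic. Each fit was run on simulated counts with known fold changes, drawn separately for each gene. They held no library standing apart over many genes, as obese control 2 did, so that case was not tested. Correlations used log2(CPM + 1), with 100000 permutations for 10 libraries and all 362880 orders for 9, adjusted over all genes set against Havcr1. No label says that library numbers mark separate rats, so p-values measure the spread between these libraries.

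Besides the 8 members, genes named are those of a list past the threshold, up to 4 by size, otherwise up to 2 of the largest fitted changes, and the 5 with a proper symbol (no clone or locus name) most like Havcr1. Single-library values of Fn1, Lcn2, Slc34a1 and Ccn1 were picked after seeing them. Promoter windows came from RefSeq (GRCr8). Alternatives tried were DESeq2 1.42.0, other size factors (RLE), fits without the low-count filter, other sets of libraries, no sex term, a pseudocount of 0.1, raw totals, and leaving out each library in turn.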

Additional observations from a re-analysis of the deposited data

Results flagged for a closer look

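A library was flagged where its gap to the nearest other library of its group exceeded the critical share of the group's range (Dixon's 95% values). Each of the 8 members was checked in 4 groups, 32 in all, and 14 were flagged. For normally distributed values chance flags about 1 in 20. The values here were CPM without a log scale, so the share flagged by chance is not known. Obese control 2 was flagged for 7 of 8 members: Havcr1 at 713 CPM, Spp1 at 13104.5 CPM, Clu at 1492.4 CPM, Timp1 at 62.3 CPM, Vim at 453 CPM, Cd44 at 119 CPM and Adamts4 at 48.6 CPM. Obese pFUS 8 was flagged for 4: Havcr1 at 44.8 CPM, Spp1 at 1872.1 CPM, Timp1 at 18.5 CPM and Cd44 at 30.2 CPM. The members are not independent of each other, and these flags come from the same 2 libraries.

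In DIO-stz kidneys, Clu was at 538 CPM in pFUS 11, the female of that group, against 63.5 to 116 CPM in the 4 males. Timp1 was at 4.11 CPM in control 4, below the other 3 controls, and Adamts4 was at 11.4 CPM in control 3, above the other 3.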

How the results depend on the processing

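No paired analysis was possible because control and pFUS groups share no replicate numbers that mark the same rat within a model. Where a value changed, the cause was not tested unless stated. For obese kidneys the count of 13 genes became 97 with DESeq2, 36 with all 21 kidney libraries in one fit, 37 without the 3 kidneys with the highest Havcr1 and 5 to 19 leaving out 1 library (5 to 8 without any 1 of the pFUS kidneys), and the count of members 0 to 1. For DIO-stz kidneys the count of 15 became 450 with DESeq2, 23 with no filter, 38 with all libraries in one fit, 0 each with only DIO-stz libraries, no sex term or male libraries, and 0 to 164 leaving out 1 library (164 without control 6, 82 without control 4, and 0 to 2 without any other). The 0 genes of the difference became 51 with DESeq2 and 0 to 5 leaving out 1 library. The median r of obese pairs, 0.85, was 0.61 to 0.89 leaving out 1 library and -0.07 without the 3 kidneys, a choice made after seeing the data.

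Without the 3 kidneys the obese log2 fold change turned to 0.63 for Havcr1, 0.47 for Spp1, 0.23 for Vcam1 and 0.02 for Cd44, and the difference between models to 2.12 for Havcr1, 1.88 for Spp1, 0.36 for Clu, 0.54 for Timp1, 0.38 for Vim and 0.02 for Cd44. Since the 3 were picked by their Havcr1, these turns are partly built in for Havcr1 and the genes that follow it. In male libraries the difference turned to 0.05 for Clu, 0.31 for Timp1, 0.02 for Vim and -0.04 for Vcam1. In DIO-stz kidneys Vcam1 was 0.01 with no sex term, and Cd44 -0.00 with no filter and in one fit of all libraries. Leaving out 1 library, Vcam1 in obese kidneys ran from -0.46 to 0.18 and Cd44 in DIO-stz kidneys from -0.25 to 0.23. The difference ran from -2.65 to 0.61 for Havcr1, -1.79 to 0.90 for Spp1, -1.33 to 0.47 for Clu, -0.64 to 0.70 for Timp1, -0.53 to 0.41 for Vim and -0.13 to 0.47 for Vcam1, each highest without obese control 2. Adamts4 kept a negative sign in both models and in the difference under all alternatives run. Low reads limit Havcr1 in DIO-stz pFUS kidneys.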
